A study of Homo sapiens with 23 samples.

Results

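The peak lists of H4K5acK8ac and H4K5ac were compared with each other. H4K5acK8ac is a histone H4 tail acetylated at lysines 5 and 8 together, and H4K5ac is the acetylation at lysine 5. Members were chosen by the antibody named in the sample titles, which gave 4 of the 23 samples of the series, 2 replicate libraries for each mark. Chromatin immunoprecipitation and sequencing (ChIP-seq) was done in NCI-H23 (H23), an established line of non-small cell lung cancer cells, and 22 of the samples, for 11 targets, came with a list of peaks. All 4 libraries came from the same line, so every value describes 1 cell line. The H4K5acK8ac antibody was a mouse monoclonal made by the submitters, and the H4K5ac antibody was a commercial rabbit polyclonal, so antibody and mark cannot be told apart in any comparison of the 2 marks. Cells in the protocol were given JQ1, a BET inhibitor, or DMSO, its solvent, and no label ties a library to either. The labels also do not say whether replicates were separate cultures, so the spread between replicates may be technical. The identity of the line could not be checked against marker genes, because peak lists hold no expression values and no gene annotation of their build, hg19, was used.

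The tail of histone H4 carries several lysines that acetyltransferases modify, and acetylated tails are found at active promoters and enhancers. The paired bromodomain proteins of the BET family, BRD2 among them, bind the H4 tail through acetylated lysines, and neighbouring acetyl groups can be held by the same bromodomain. H3K4me3 marks promoters of active genes, whereas H3K4me1 together with H3K27ac and without H3K4me3 marks active enhancers.

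H4K5acK8ac had fewer and wider peaks than H4K5ac. The H4K5acK8ac lists held 75854 and 71831 peaks in replicates 1 and 2, and the H4K5ac lists held 125816 and 118148. The peaks nevertheless covered similar lengths of genome, 64.3 and 71.7 Mb for H4K5acK8ac against 72.4 and 72.6 Mb for H4K5ac. The surplus of H4K5ac peaks lay among weak ones. At a −log10 q of at least 5, where q is the authors' false discovery rate of a peak, the lists held 38186 and 41158 H4K5acK8ac peaks and 38485 and 39460 H4K5ac peaks. Below, strength means the rank of a peak within its own list by −log10 q, because fold enrichments of different libraries are not on one scale. The read depth behind the lists is unknown. With 2 libraries against 2, the smallest two-sided p that an exact permutation test can give is 0.333, so differences between the marks are set against the spread between replicates and no test is reported.

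Most H4K5acK8ac peaks overlapped an H4K5ac peak. Over the 4 pairings of an H4K5acK8ac with an H4K5ac list, 72.6% of H4K5acK8ac peaks shared at least 1 bp with an H4K5ac peak (71.1% to 74.0%; SD between the H4K5acK8ac libraries 1.73, n = 2). In the other direction, 53.1% of H4K5ac peaks overlapped an H4K5acK8ac peak (50.1% to 56.0%; SD 0.896, n = 2). Replicates of the same mark give the scale for these shares. The replicates of H4K5acK8ac overlapped by 72.0% and those of H4K5ac by 60.2% (means of both directions). An H4K5acK8ac peak was thus found in an H4K5ac list about as often as in its own replicate, while an H4K5ac peak was found in an H4K5acK8ac list less often than in its own replicate, with no overlap between the ranges.

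With lists of equal length the overlap shares of the 2 directions lay closer together. Among the 10000 strongest peaks of each list, 81.4% of H4K5acK8ac peaks overlapped one of the 10000 strongest H4K5ac peaks (81.0% to 81.9%). The reverse share was 87.7% (86.4% to 89.0%). The replicate shares at this length were 86.9% for H4K5acK8ac and 86.6% for H4K5ac, so the H4K5acK8ac share lay below both, beyond the range over library pairings, and the H4K5ac share did not. The marks also differed in how their peaks were divided. Over all deposited peaks, 22.2% of the H4K5acK8ac peaks that overlapped H4K5ac held at least 2 H4K5ac peaks, whereas 5.82% of overlapping H4K5ac peaks held at least 2 H4K5acK8ac peaks. With lists of equal length again, the 10000 strongest H4K5acK8ac peaks overlapped those of H4K12ac by 75.0%, of H3K27ac by 75.6%, of BRD2 by 66.8% and of H4K8ac by 58.1%. For H4K5ac these shares were 77.4%, 77.0%, 64.5% and 58.6%. Each mark therefore shared more of its strong peaks with the other than with any of these 4 targets, over every pairing of libraries.

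**Figure D1:**
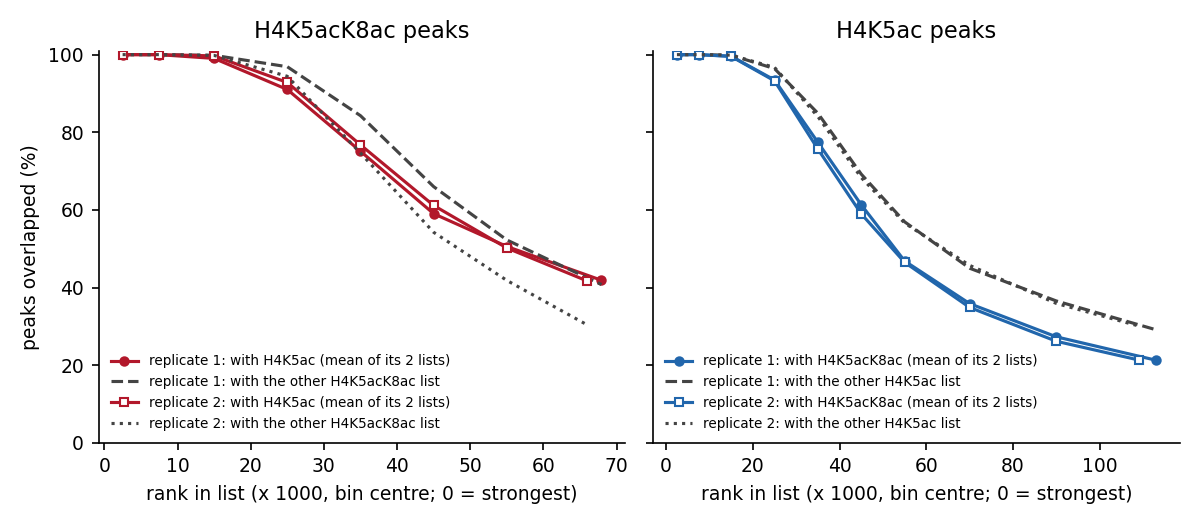
Share of peaks (%) that overlap the other mark (solid, mean over its 2 lists) or the replicate list of the same mark (dashed for replicate 1, dotted for replicate 2), by rank within the list. All lines stay near 100% up to rank 20000 and fall together below it, and for H4K5ac the share with H4K5acK8ac falls below the replicate share.

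The overlap followed strength closely, as the plot of overlap by rank shows. Between ranks 10001 and 20000 of the H4K5acK8ac lists, 98.9% to 99.7% of peaks overlapped H4K5ac. Between ranks 40001 and 50000 the share was 58.5% to 61.4%, beside 66.0% and 54.2% with the other H4K5acK8ac list. In the same ranks of the H4K5ac lists, 55.2% to 65.4% of peaks overlapped H4K5acK8ac, beside 69.2% and 68.3% with the other H4K5ac list. A peak that lacked the other mark was therefore nearly always one of the weaker peaks of its list.

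Merging all peaks of the 4 lists gave 165568 regions. Of these, 37239 (22.5%) were called in all 4 lists. They had a median width of 1460 bp and covered 69.6 Mb. Regions called in both H4K5acK8ac lists and neither H4K5ac list numbered 3003 (1.81%), with a median width of 481 bp and 1.61 Mb in all. Regions called in both H4K5ac lists and neither H4K5acK8ac list numbered 10035 (6.06%), with a median width of 427 bp and 4.69 Mb in all. These 3 classes are called shared, H4K5acK8ac-only and H4K5ac-only regions below. A tail acetylated at both lysines carries acetylated lysine 5 by definition. An H4K5acK8ac-only region is thus one where no H4K5ac peak was called, not one shown to be without that acetylation. Peaks said to lack a mark are meant in the same way. A further 72845 regions were in 1 H4K5ac list only, 19349 in 1 H4K5acK8ac list only, and 23097 in at least 1 list of each mark but not in all 4.

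Neither separate class held a peak from the 10000 strongest of any list. The strongest H4K5acK8ac-only peaks had ranks 13265 and 16998 in replicates 1 and 2, and the strongest H4K5ac-only peaks had ranks 15130 and 12457. Fold enrichment over background is the authors' value and is used only within a list. In H4K5acK8ac replicate 1 its median was 8.13 in shared and 3.76 in H4K5acK8ac-only regions. In H4K5ac replicate 1 it was 5.21 in shared and 3.00 in H4K5ac-only regions. The counts of separate regions depend on both replicates being required. Without 1 H4K5acK8ac library the H4K5acK8ac-only count was 12298 or 15298, and without 1 H4K5ac library the H4K5ac-only count was 45803 or 50482. At a −log10 q of at least 5 in every list the order of the classes turned, with 3398 H4K5acK8ac-only and 663 H4K5ac-only regions. Regions where the peaks of the other mark fell below this threshold then count as separate.

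The separate classes differed in promoter context. H3K4me3 peaks of both its libraries overlapped 49.1% of shared regions, 21.5% of H4K5acK8ac-only regions (95% Wilson interval 20.05% to 22.98%, counting error only) and 2.73% of H4K5ac-only regions (2.43% to 3.07%). Over all merged regions the share was 14.7%, so with all 4 lists the 2 separate classes lay on opposite sides of it. The H3K4me3 libraries gave near-equal values, 21.7% and 22.0% for H4K5acK8ac-only and 3.08% and 2.96% for H4K5ac-only regions. The difference of 18.7 points stayed positive without any 1 of the 4 libraries. It was 4.92 points without H4K5acK8ac replicate 2 and 10.9 points without H4K5acK8ac replicate 1, where regions of a single H4K5acK8ac list enter the class. The H4K5acK8ac-only share was then 10.4% or 14.2%, both below 14.7%, and the H4K5ac-only share 5.53% or 3.31%. Without an H4K5ac library the difference was 17.1 or 19.0 points, and at a −log10 q of at least 5 it was 30.7 points. At that threshold the classes also take in regions whose peaks of the other mark fell below it. The 30.7 points thus belong to other regions and do not show a stronger contrast.

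H3K27ac, the acetylation found at both active promoters and active enhancers, followed the same order. It overlapped 81.4% of shared regions, 53.7% of H4K5acK8ac-only regions and 22.2% of H4K5ac-only regions, beside 32.9% of all merged regions. Without H4K5acK8ac replicate 1 the separate classes came close, at 29.3% and 28.6%. Without an H4K5ac library the H4K5ac-only share fell to 13.5% or 13.1%. H3K4me1 separated them little. Its shares were 79.6%, 37.2% and 36.2%, and the separate classes lay near the 38.3% of all merged regions. H3K4me1 replicate 1 alone gave 38.4% of H4K5acK8ac-only and 37.4% of H4K5ac-only regions. Replicate 2 alone gave 62.9% and 56.4%, beside 56.0% of all. Regions with none of the 3 marks made up 1.60% of shared, 11.9% of H4K5acK8ac-only and 33.6% of H4K5ac-only regions, beside 34.7% of all.

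The active enhancer-like shares, regions with H3K4me1 and H3K27ac in both libraries and H3K4me3 in neither, were 30.6% of shared, 21.3% of H4K5acK8ac-only and 15.1% of H4K5ac-only regions, beside 15.2% of all. The order of the separate classes was not stable. The difference of 6.18 points became −7.17 without H4K5acK8ac replicate 1, −1.46 without H4K5acK8ac replicate 2 and −6.98 at a −log10 q of at least 5. It was 16.0 and 16.3 points without H4K5ac replicates 1 and 2. No difference in enhancer-like context between the separate classes was therefore established.

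**Figure D2:**
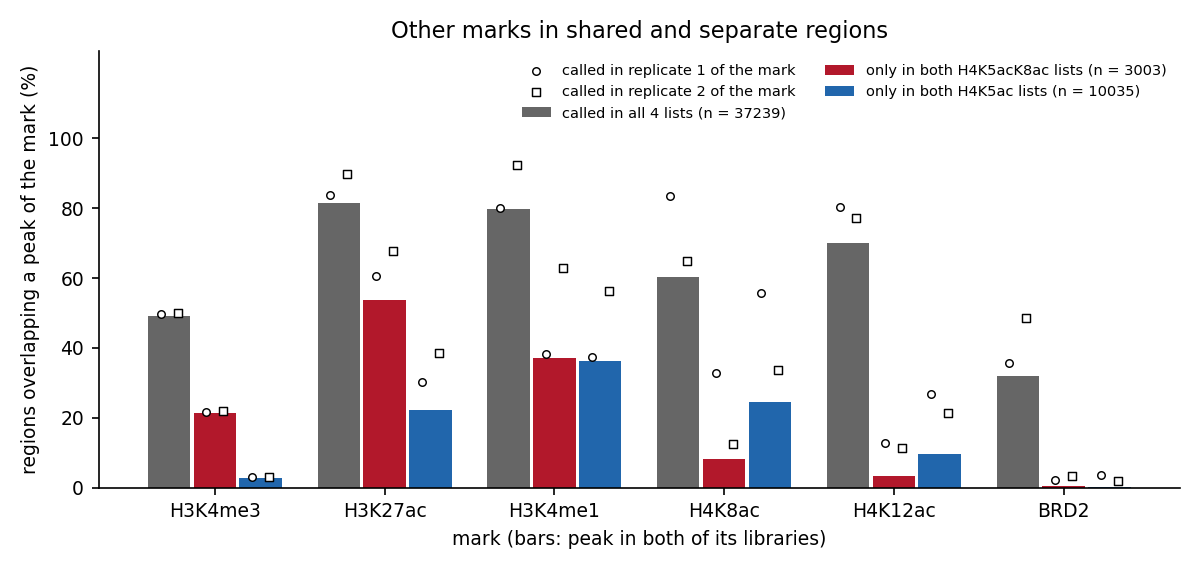
Share of regions (%) that overlap a peak of another target, for the 3 region classes. Bars require a peak in both libraries of the target, and circles and squares give its replicates 1 and 2 alone. H3K4me3 and H3K27ac are higher in H4K5acK8ac-only (red) than in H4K5ac-only regions (blue), and H4K8ac and H4K12ac are lower. The order for H4K12ac turned without either H4K5ac library, and that for H4K8ac turned without H4K5ac replicate 2. The H4K12ac order also turned where lists had to cover at least 50% of a region.

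The remaining H4 acetylations showed the opposite order. H4K8ac is the acetylation at the second lysine of the pair. Its peaks overlapped 60.4% of shared regions, 8.16% of H4K5acK8ac-only regions and 24.5% of H4K5ac-only regions, beside 22.9% of all. The H4K8ac replicates differed in level, at 32.8% and 12.5% of H4K5acK8ac-only and 55.7% and 33.8% of H4K5ac-only regions, but each gave the same order. H4K12ac, an acetylation further along the tail, overlapped 70.0%, 3.46% and 9.69%, beside 19.4% of all. This order rested on the H4K5ac libraries, and for H4K12ac also on the overlap rule. Without H4K5ac replicate 2 the H4K8ac shares of the separate classes were 12.8% and 11.0%, and without H4K5ac replicate 1 they were 11.7% and 12.6%. For H4K12ac they were 6.62% and 3.77% without H4K5ac replicate 2, and 6.95% and 4.06% without H4K5ac replicate 1, so that its order turned. Without H4K5acK8ac replicate 2 they were 1.70% and 14.7%. Where a list counted only if it covered at least 50% of a region, the H4K12ac shares were 14.4% and 13.9%, the turned order again. BRD2, the BET protein, was called in both libraries at 32.1% of shared regions and at 0.4995% and 0.140% of the separate classes, beside 7.32% of all. The H4K5acK8ac, H3K4me3 and H3K27ac antibodies were mouse monoclonals, and the H4K5ac, H4K8ac, H4K12ac, H3K4me1 and BRD2 antibodies rabbit polyclonals. H3K4me3 and H3K27ac, which were higher in H4K5acK8ac-only regions, thus share the kind of antibody with H4K5acK8ac. H4K8ac and H4K12ac share it with H4K5ac, and so do H3K4me1 and BRD2. H3K4me1 separated the classes little, and the order for BRD2 depended on its library. BRD2 replicate 1 overlapped 2.26% of H4K5acK8ac-only and 3.63% of H4K5ac-only regions, and BRD2 replicate 2 overlapped 3.36% and 1.89%. The part of the antibodies in these shares was not tested.

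Since separate peaks are weak and H3K4me3 is commoner at strong peaks, the contexts were also compared at matched rank, an alternative chosen after the data were seen. For H4K5ac the contrast remained in both replicates. Between ranks 30001 and 40000, H4K5ac peaks with H4K5acK8ac in both lists carried H3K4me3 in 32.7% and 33.1% of cases, and those with H4K5acK8ac in neither list in 3.60% and 3.36%. H3K27ac fell on 75.4% and 74.5% of the former and 25.9% and 23.4% of the latter. In every bin from rank 20001 to the end of both H4K5ac lists, 1.78% to 4.98% of the peaks lacking H4K5acK8ac carried H3K4me3, against 24.3% to 42.4% of those with it. Matching by rank did not match width, on which an overlap of at least 1 bp also depends. Between ranks 30001 and 40000 the median widths were 537 and 553 bp with H4K5acK8ac, and 327.5 and 340 bp without. The part of width in the contrast was not tested.

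For H3K4me3 at H4K5acK8ac peaks the replicates went opposite ways. Between ranks 30001 and 40000 of replicate 1, H3K4me3 lay at 20.3% of peaks with H4K5ac and 17.8% of peaks without it. In replicate 2 the values were 14.6% with and 29.7% without. Between ranks 20001 and 30000 the gap in replicate 2 was wider, 32.8% with and 61.3% without, the latter over 287 peaks. In every bin from rank 20001, peaks lacking H4K5ac carried less H3K4me3 than peaks with it in replicate 1, and more in replicate 2. H3K27ac went the same way in both replicates. Between ranks 30001 and 40000 it lay at 68.1% and 60.6% of peaks with H4K5ac, and at 61.6% and 45.4% of those without. H4K8ac did not depend on the replicate. In the 30001 to 40000 bin it lay at 36.2% of H4K5acK8ac peaks with H4K5ac in either replicate, and at 5.48% and 5.72% of those without. H4K5ac peaks of this bin had H4K8ac at 31.8% and 31.4% with H4K5acK8ac, and at 21.0% and 23.5% without. Widths were unmatched for H4K5acK8ac too, with medians in this bin of 534 and 633 bp with H4K5ac and 379 and 425 bp without.

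**Figure D3:**
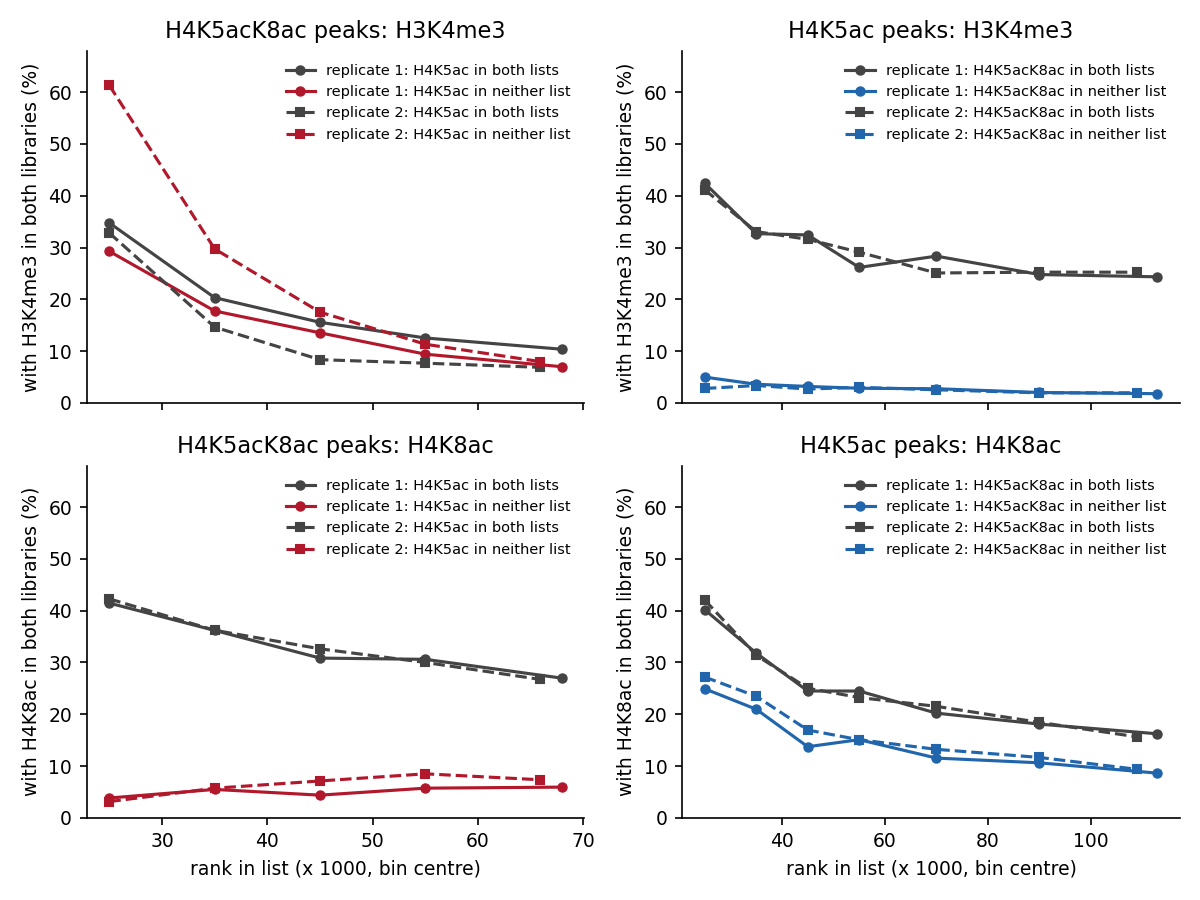
Share of peaks (%) with H3K4me3 (top) or H4K8ac (bottom) in both libraries, by rank from 20001 on, for H4K5acK8ac peaks (left) and H4K5ac peaks (right). Grey lines are peaks with the other mark in both lists and coloured lines peaks with it in neither list. The H4K5ac peaks without H4K5acK8ac reach at most 4.98% for H3K4me3, and the H4K5acK8ac peaks without H4K5ac at most 8.50% for H4K8ac.

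Strong peaks whose rank differed between the marks also differed in promoter context. Merging the 10000 strongest peaks of each list gave 12135 regions. Of these, 82.2% were promoter-like, meaning H3K4me3 in both libraries, 14.6% were enhancer-like, 79.5% held BRD2 and 16.8% held H3K36me3, a mark of transcribed gene bodies. In 7042 regions all 4 lists had a peak of that rank, and 88.4% of these were promoter-like. The 292 regions reached by both H4K5ac lists and no H4K5acK8ac list were promoter-like in 53.4% of cases and enhancer-like in 35.6%, away from the shares over all 12135. The 559 regions reached by both H4K5acK8ac lists and no H4K5ac list lay near those shares, with 86.4% promoter-like and 11.99% enhancer-like. BRD2 lay at 43.2% of the H4K5ac and 73.0% of the H4K5acK8ac regions, both below the share over all, and H3K36me3 at 18.8% and 6.80%. At 20000 peaks a list the promoter-like shares were 18.1% of 331 H4K5ac regions and 71.7% of 1348 H4K5acK8ac regions, beside 67.6% of all. Of the 10000 strongest peaks themselves, 85.8% and 85.7% were promoter-like in the H4K5acK8ac libraries and 82.6% and 82.7% in the H4K5ac libraries. The difference of 3.11 points was larger than the difference between replicates of either mark.

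Within each list, promoter-like peaks had higher fold enrichments than enhancer-like peaks. The ratio of the medians was 2.42 and 2.66 in the H4K5acK8ac lists and 1.51 and 1.53 in the H4K5ac lists. The fold scales themselves differed, with a 95th percentile of 28.4 and 26.9 against 10.4 and 10.3, so these ratios are not compared between the marks. Promoter-like peaks were wider than enhancer-like peaks over whole lists, by a ratio of median widths of 1.92 and 1.89 for H4K5acK8ac and 1.58 and 1.56 for H4K5ac. Among the 10000 strongest peaks they were narrower, at ratios of 0.780 and 0.803 for H4K5acK8ac and 0.840 and 0.833 for H4K5ac, and the order of the marks turned. Over whole lists, promoter-like peaks made up 31.7% and 32.2% of H4K5acK8ac peaks and 23.2% and 23.8% of H4K5ac peaks, and peaks with none of the 3 marks 9.93% and 9.96% against 24.1% and 23.1%.

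The strongest shared region by rank lay at chr2:232570235-232576184 (hg19), where the peaks reached 90.1-fold and 81.2-fold enrichment in the H4K5acK8ac lists and 37.3-fold and 37.8-fold in the H4K5ac lists. It and the next 4 shared regions (chr20:34328206-34332818, chr2:70311494-70317810, chr1:153535838-153542656 and chr17:79823241-79831220) held H3K4me3, H3K4me1, H3K27ac, H4K8ac, H4K12ac, BRD2 and H3K36me3 peaks in both libraries. The widest shared region, chr22:30582194-30663656, spanned 81463 bp. It was divided into 5 and 2 peaks in the H4K5acK8ac lists and into 13 and 11 in the H4K5ac lists. The other two widest, chr11:123297960-123353215 and chr17:57899633-57938351, spanned 55256 and 38719 bp. Which genes these regions touch was not analysed here.

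Of the 5 strongest H4K5acK8ac-only regions, 4 carried H3K4me3 and H3K27ac in both libraries and no H4K8ac or BRD2 peak in either. These were chr1:17222128-17222759, chr4:147443662-147444124, chr22:45664533-45664993 and chr1:145398749-145399129. The first had fold enrichments of 11.0 and 9.25 in replicates 1 and 2. The fifth, chr9:6353702-6355066, had fold enrichments of 11.4 and 7.90 and no H3K4me3 peak. The 3 widest H4K5acK8ac-only regions, chr9:90324031-90326285, chr12:109115662-109117604 and chrX:49759280-49761124, were 1845 to 2255 bp wide. All 3 had H3K4me1 and H3K27ac in both libraries and H3K4me3 in neither, the enhancer-like pattern.

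The 5 strongest H4K5ac-only regions had mixed contexts. The first, chr21:9857636-9858208, with fold enrichments of 3.53 and 3.55, overlapped H4K8ac, H4K12ac and H3K9me3, a mark of silent chromatin, in both libraries, and none of the 3 promoter and enhancer marks. Only the second, chr12:113900038-113900387, carried H3K4me3. The others, chr6:2744835-2745328, chr6:36727085-36727573 and chr2:91817336-91817777, carried H3K4me1 in both libraries without H3K4me3. The region on chromosome 2 had the lowest fold enrichments of the 5, 2.65 and 2.73. No regions of unreliable mapping were filtered out, and the part of mapping in these calls was not tested. The widest H4K5ac-only regions were chr17:74562027-74563860, chr7:80337333-80338998 and chr5:138610973-138612613, 1641 to 1834 bp wide.

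Many separate regions lay beside a peak of the other mark. From an H4K5acK8ac-only region the median gap to the nearest H4K5ac peak was 772 bp, and 54.9% lay within 1 kb. From an H4K5ac-only region the median gap to the nearest H4K5acK8ac peak was 2030 bp, and 35.6% lay within 1 kb, although the H4K5acK8ac lists also hold fewer peaks to be near. The few promoter-like H4K5ac-only regions (274) mostly lay beside H4K5acK8ac peaks, with 81.4% within 1 kb. The 645 promoter-like H4K5acK8ac-only regions were nearer or farther, with 60.9% within 1 kb of H4K5ac and 20.5% more than 20 kb away. Inside the shared regions, 80.8% of bases were covered by both marks, 12.5% by H4K5acK8ac without H4K5ac and 6.74% by H4K5ac without H4K5acK8ac.

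Peak widths differed more over whole lists than between matched peaks. The median width was 470 and 582 bp in the H4K5acK8ac lists and 330 and 353 bp in the H4K5ac lists, a ratio of 1.54. The narrowest peak also differed between the lists, at 224, 240, 202 and 211 bp in that order. Among the 10000 strongest peaks the medians were 2016 and 2168 bp against 1717 and 1774 bp, a ratio of 1.20. Where 1 peak of each list overlapped only each other, the median H4K5acK8ac to H4K5ac width ratio was 1.02 to 1.15 over the 4 pairings. It was 1.04 and 1.02 with H4K5acK8ac replicate 1 and 1.15 and 1.13 with replicate 2. The same ratio was 0.914 between H4K5acK8ac replicates 1 and 2 and 0.983 between the H4K5ac replicates. With both peaks among the 10000 strongest it was 1.01 to 1.04 between the marks, 0.970 between the H4K5acK8ac replicates and 0.994 between the H4K5ac replicates. Shared regions held 1.33 and 1.17 H4K5acK8ac peaks each against 1.61 and 1.54 H4K5ac peaks.

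By median distance, summits of matched peaks lay as close between the marks as between replicates of H4K5ac. The median distance between summits of peaks that overlapped one to one was 85.0 to 88.0 bp over the 4 pairings of the marks. It was 71.0 bp between the H4K5acK8ac replicates and 91.0 bp between the H4K5ac replicates. With both peaks among the 10000 strongest the values were 47.0 to 49.0 bp between the marks, 36 bp for H4K5acK8ac and 51.0 bp for H4K5ac. Promoter-like pairs had nearer summits (67 to 68 bp between the marks) than enhancer-like pairs (102 to 106 bp), and this order held between replicates of each mark as well, at 51.0 against 91.0 bp for H4K5acK8ac and 71.0 against 107 bp for H4K5ac. These median distances between the marks, taken without direction, did not exceed those of the H4K5ac replicates but exceeded those of the H4K5acK8ac replicates. Pairs more than 500 bp apart made up 3.675% to 3.98% between the marks. They made up 2.94% between the H4K5ac replicates and 3.82% between the H4K5acK8ac replicates.

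**Figure D4:**
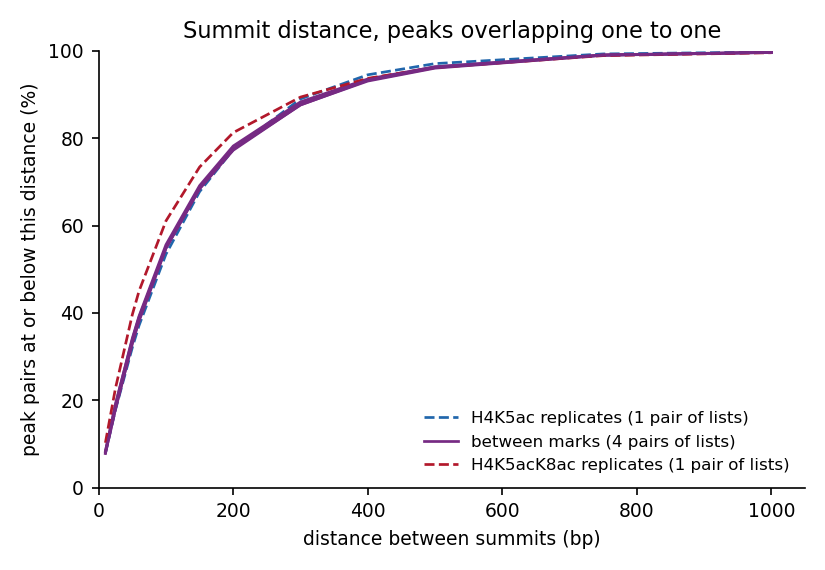
Cumulative share (%) of peak pairs by the distance between their summits in bp, for peaks that overlap one to one. The 4 pairings of the marks (purple) nearly coincide and lie close to the H4K5ac replicates (blue, dashed). At 100 bp the pairings reach 54.8% to 55.6%, the H4K5ac replicates 53.4% and the H4K5acK8ac replicates (red, dashed) 61.1%.

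Median distances from the summits of other targets were smaller to H4K5acK8ac than to H4K5ac summits, although place by place the split was not far from even. For this comparison a peak of each mark and a peak of the target had to overlap one to one. The median distance from the BRD2 summit was 92.4 bp to H4K5acK8ac and 106 bp to H4K5ac (means of 8 combinations of libraries), and the H4K5acK8ac median was smaller in 8 of 8. From the H3K4me3 summit the distances were 197 and 265 bp and from the H3K27ac summit 90.8 and 111 bp, again in 8 of 8. For H4K12ac they were 86.9 and 92.1 bp (8 of 8), and for H4K8ac 102 and 108 bp (6 of 8). The 8 combinations share libraries and are not independent. At single places the H4K5acK8ac summit was the nearer in 53.6% to 55.3% of cases for BRD2 and 56.4% to 57.0% for H3K4me3. The range was 53.6% to 55.5% for H3K27ac, 50.2% to 52.0% for H4K12ac and 49.6% to 53.7% for H4K8ac. The H4K5acK8ac summits also differed less between their own replicates, and the part of this in the smaller distances was not tested.

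The separate classes were spread unevenly over the chromosomes, whose copy number in this line was not analysed here. Genome-wide there were 3.34 H4K5ac-only regions for each H4K5acK8ac-only region. The ratio was 10.1 on chromosome 17 (959 against 95), 6.42 on chromosome 12, 6.09 on chromosome 20 and 6.06 on chromosome 2 (1206 against 199). It was 0.525 on chromosome 4 (104 against 198), 0.776 on chromosome X (83 against 107) and 1.10 on chromosome 13. Chromosome 2 held 12.02% of H4K5ac-only, 6.63% of H4K5acK8ac-only and 8.13% of shared regions, and chromosome 4 held 1.04%, 6.59% and 2.65%. The pattern was present in each library. Of the H4K5ac peaks on chromosome 2, 46.8% and 47.8% overlapped neither H4K5acK8ac list, against 31.8% and 27.7% on chromosome 4. Of the H4K5acK8ac peaks, 20.6% and 16.6% on chromosome 2 and 32.2% and 26.7% on chromosome 4 overlapped neither H4K5ac list. Chromosome 19 was low for both marks, at 29.0% and 25.8% of H4K5ac and 12.8% and 12.9% of H4K5acK8ac peaks.

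**Figure D5:**
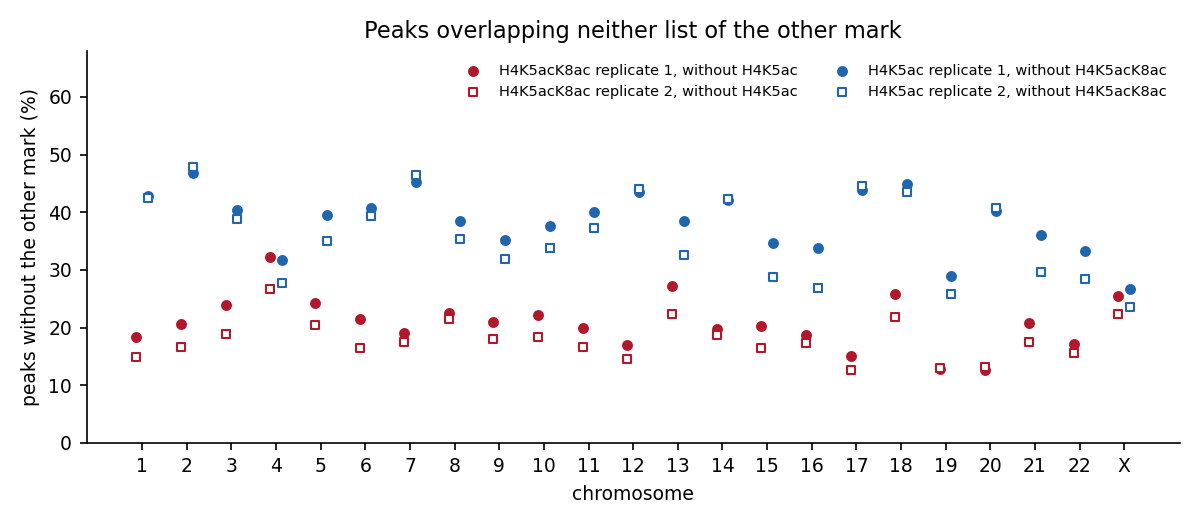
Share of peaks (%) on each chromosome that overlap neither list of the other mark, for each of the 4 libraries (filled circles replicate 1, open squares replicate 2; red H4K5acK8ac, blue H4K5ac; chromosome Y is left out). The marks lie far apart on chromosomes 2, 7, 17 and 20 and close together on chromosomes 4 and X.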

How the data were processed

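Reads were aligned with BWA to hg19 and peaks were called with MACS2, per the submitters' processing notes; versions and the control used for calling are not given in the sources used here. The deposited lists have 10 columns and no header, 1 list per library. Column 5 is the peak caller's score in the deposited lists and was not used. The authors' fold enrichment (a ratio) was used only within a list, the deposited −log10 p and −log10 q values ranked the peaks, and the last deposited column gave the summit as an offset. The least significant peak of each deposited list had a −log10 p of 2.00 to 2.01. Peaks on the mitochondrial genome (6, all in H4K5acK8ac replicate 2) were left out. No list of regions with unreliable mapping was used to filter peaks here.

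Overlap meant at least 1 bp. Peaks were ranked by −log10 q, ties by −log10 p. A context mark counted where both of its libraries had a peak. Intervals are Wilson at 95%. Named regions were the 5 strongest of each class, by the lowest rank share over the libraries that called it, and the 3 widest. Python 3.11.15 with numpy 2.4.6 and pandas 2.3.3 was used, and the interval functions were tested on simulated data with 0 mismatches in 200 pairs of lists. Alternatives were each library left out, libraries paired by replicate number, other significance and overlap thresholds, other list lengths, and autosomes only. The members and the comparisons were chosen with earlier results of these data known. No sequences or gene names are given, because coordinates of hg19 were not matched to a genome here.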

Additional observations from a re-analysis of the deposited data

How the results depend on the processing

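Of 120 recomputed values, 76 moved by less than the spread over the 4 pairings of libraries (region counts: by less than 1.5 times), 41 moved by more and 3 changed sign. Leaving out a library, or pairing libraries by replicate number, averages values from part of the same 4 pairings. Under these settings overlap shares, width ratios, summit distances and the promoter-like difference could not move by more than that spread. The count of 76 is therefore not a measure of stability. Leaving out each library in turn gave 5434 to 15298 H4K5acK8ac-only and 12784 to 50482 H4K5ac-only regions, because fewer lists must then hold a peak. It gave an H3K4me3 difference between the separate classes of 4.92 to 19.0 points and an enhancer-like difference of −7.17 to 16.3 points, which changed sign without either H4K5acK8ac library. Limited to peaks with −log10 q of 5 or more, the enhancer-like difference was −6.98 and the H3K4me3 difference 30.7 points, 85.1% of H4K5ac peaks overlapped H4K5acK8ac, 22429 regions were shared and 663 were H4K5ac-only, the width ratio was 1.21 and the summit distance 71.3 bp. With at least 50% covered, the overlaps were 61.6% and 47.7% over all peaks and 74.2% for the strongest H4K5acK8ac peaks, with 24513 shared and 5317 H4K5acK8ac-only regions. With summits widened by 250 bp in both directions they were 70.2% and 44.5% over all peaks and 74.4% and 74.5% over the strongest (H4K5acK8ac first). With 5000 strongest peaks the overlaps were 79.1% and 83.1% and the promoter-like difference 2.21 points, and with 20000 they were 80.0% and 90.6%, and 2.50 points. Over the 10000 strongest peaks the width ratio was 1.20 and the summit distance 49.5 bp. The promoter-like difference was 3.04 points on autosomes and 2.88 with H3K4me3 called in at least 1 library. At matched rank (20001 to 50000), a choice made after seeing the data, peaks lacking the other mark differed by 24.8 points in H3K4me3 and 1.21 points in enhancer-like share. These means gave each rank bin and replicate equal weight, whatever its number of peaks. For H3K4me3, 61.3% of 287 peaks in H4K5acK8ac replicate 2 counted as much as 13.5% of 2763 peaks in replicate 1. The 24.8 points therefore do not show a wider contrast than without matching. For the 10000 strongest peaks, both thresholds on q leave the lists as they are and so say nothing. Deviations of same-numbered libraries from their group means, in bins of 100000 bp, correlated at −0.00467, so no pairing by replicate number was seen in the lists. With 2 libraries a mark, this value cannot tell whether same-numbered libraries shared a culture or batch. With the replicate block (same-numbered lists only) there were on average 20288.5 H4K5acK8ac-only and 57369 H4K5ac-only regions, classes then resting on 1 list a mark, and the H3K4me3 difference was 9.36 points. Read depth is unknown and limits what the weak peaks can show. Except where named, the cause of a shift was not tested.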
